A study of Homo sapiens with 72 samples.

Results

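RNA of 46 genes of DNA replication and S phase was followed in PEO1 cells, an established cell line from a high-grade serous ovarian carcinoma. The genes were listed by name as replication factors, and all 46 were found among the 55411 genes to which transcripts could be matched. They comprise 11 genes that license origins or time the licence, 6 of helicase activation, 5 of the sliding clamp and its loader, 7 of the polymerases and primase, 4 of Okazaki fragment processing and single-strand DNA binding, 4 of nucleotide supply, 3 of entry into S phase, 3 of chromatin replication and 3 of fork protection. Cells were given rucaparib, a fluorescent inhibitor of PARP enzymes, at 8.5 µM or vehicle for 2 or 24 h, and RNA was read as poly(A) strand-specific libraries. RucHigh at 24 h and at 2 h were the 20% of treated cells with the highest drug fluorescence, and RucLow at 24 h and at 2 h were the 20% with the lowest. RucTotal at 24 h and at 2 h were treated cells that were not sorted, and Vehicle at 24 h and at 2 h were unsorted cells without drug. Sorted cells were detached and passed through a cell sorter, whereas unsorted cells were scraped directly into lysis buffer. The middle of the fluorescence range was present only in the unsorted groups, and all groups are of 1 cell line. Each of the 8 groups had 3 replicates, each the sum of 3 libraries.

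Before S phase, the origin recognition complex, CDC6 and CDT1 load the MCM2 to MCM7 helicase onto DNA, and geminin (GMNN) holds CDT1 back once replication has begun. CDC45 and the GINS complex then turn the loaded ring into a moving helicase. Primase and DNA polymerase alpha start each strand, the loader RFC puts the PCNA clamp on DNA for polymerases delta and epsilon, and FEN1 and DNA ligase 1 (LIG1) finish the Okazaki fragments of the lagging strand. Many of these genes are transcribed at the boundary of G1 and S phase by E2F factors. Genes of G2 and mitosis are instead known for CCAAT boxes and for the element named CHR in their promoters. Inhibition of PARP1 interferes with repair of single-strand breaks and with the joining of Okazaki fragments.

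Libraries held 17391033 to 38899905 estimated reads, and the 24 summed samples 78731462 to 96226085. All 8 epithelial markers of this kind of tumour passed the filter on low counts, with PAX8 at 147 to 236, EPCAM at 239 to 380 and KRT18 at 3117 to 5699 CPM (counts scaled to the library total). The leucocyte markers PTPRC and CD3E were at 0 in 17 and 18 of 24 samples, and the fibroblast markers LUM and DCN in 20 and 14. Other markers of these lists were present in every sample, with the macrophage marker CD68 at 13.7 to 27.6 CPM, the fibroblast collagen COL1A1 at 5.76 to 33.8 and the endothelial cadherin CDH5 at 8.05 to 27.1. None of the 15 epithelial, immune, fibroblast and endothelial markers that passed the filter was called in a comparison. The average length of transcript from which reads came, here called mean transcript length and a property of a whole library, lay between 2255 and 3299 bases, and 18 of 72 libraries were under 2800 bases. At 24 h it was 2746, 2711 and 3229 bases in the RucTotal samples 1, 2 and 3, against 3120, 3107 and 3231 bases in the Vehicle samples, so that it was shorter with drug in replicates 1 and 2 and alike in replicate 3. Values are given beside results that this touches.

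Promoter sequence was looked up in a RefSeq table (GRCh38.p14), which held 51 windows around gene starts for 39 of the 46 members. Letters of the E2F motif, TTTCCCGC, TTTCGCGC, TTTGCCGC or TTTGGCGC on either strand, were present in 23 of these 39 genes (59%), or in 47.1% of their windows, against 3.31% of all 35116 windows. CCAAT on either strand was present in 25 of the 39 (64.1%), or in 60.8% of their windows, against 34.6% of all windows. The CHR letters TTTGAA or TTCGAA were found in 2 of the 39 (5.13%), or in 3.92% of their windows, against 16.4% of all windows. A list of G2 and mitosis genes had E2F letters in 12%, CCAAT in 88.0% and CHR letters in 76.0% of the 25 genes that had a window. These are matches of letters, not measured binding. The 100 bases before the gene start were examined for 11 members called with the replicate block in RucTotal against Vehicle at 24 h, and 4 of them held E2F letters there. Those 4 and FEN1, which held none, are given, a choice made after values and matches were seen. The other 6, LIG1, CHAF1A, RFC2, ORC1, POLD1 and POLE2, held none in this stretch, though the whole windows of LIG1 and POLE2 each held 1. RPA3 and CCNE2, also called in that fit, had no window. The stretches given lie at chr20:33686386-33686485 on the minus strand for E2F1, chr16:88803689-88803788 on the plus strand for CDT1, chr7:100101398-100101497 on the minus strand for MCM7, chr2:135876444-135876543 on the minus strand for MCM6 and chr11:61792811-61792910 on the plus strand for FEN1. Capitals mark the E2F letters.
E2F1: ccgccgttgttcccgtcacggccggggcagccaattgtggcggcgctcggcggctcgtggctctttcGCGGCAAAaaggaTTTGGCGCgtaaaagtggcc
CDT1: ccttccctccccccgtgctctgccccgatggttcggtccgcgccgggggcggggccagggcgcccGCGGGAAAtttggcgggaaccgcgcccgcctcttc
MCM7: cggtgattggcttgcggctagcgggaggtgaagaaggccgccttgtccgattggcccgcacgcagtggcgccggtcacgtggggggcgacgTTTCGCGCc
MCM6: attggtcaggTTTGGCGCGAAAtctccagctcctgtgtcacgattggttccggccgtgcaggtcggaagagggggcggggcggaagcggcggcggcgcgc
FEN1: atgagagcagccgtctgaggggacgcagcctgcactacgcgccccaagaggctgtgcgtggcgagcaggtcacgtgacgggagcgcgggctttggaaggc
E2F1 has 2 matches, the nearer of which begins 20 bases before the gene start, and CDT1 has 1 that begins 35 bases before it. MCM7 has 1 match that begins 9 bases before the start shown, which is 1 of 3 listed for this gene, and the stretches before the other starts held none. In MCM6 the 2 matches overlap each other, with the nearer at 86 bases. FEN1 shows none in this stretch or in its whole window. None of the matches shown overlaps a CCAAT.

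All 46 members were expressed in every sample and passed the filter on low counts. Per transcript length, over all 24 samples, thymidine kinase TK1 had the highest level at 373 ± 64.4 TPM (a unit scaled by transcript length; SD, n = 24), followed by PCNA at 325 ± 38 and MCM4 at 241 ± 103 TPM. The spreads of TK1 and PCNA overlapped. MCM7 (159 ± 19.3 TPM), the flap nuclease FEN1 (156 ± 47.7) and thymidylate synthase TYMS (134 ± 16.1) formed the next step and also overlapped. At the lower end stood cyclin E1 (CCNE1, 10.0 ± 1.33 TPM), GINS3 (8.94 ± 1.34) and the chromatin assembly subunit CHAF1B (6.69 ± 0.982). The level of MCM4 was less steady in TPM than in CPM, where it spanned 218 to 369, and its leading transcript held 36.87% of its TPM. LIG1 varied most, from 20.7 to 88.2 CPM, a 4.25-fold span, and CDT1 least, from 52.8 to 76.7 CPM, a 1.45-fold span.

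**Figure D1:**
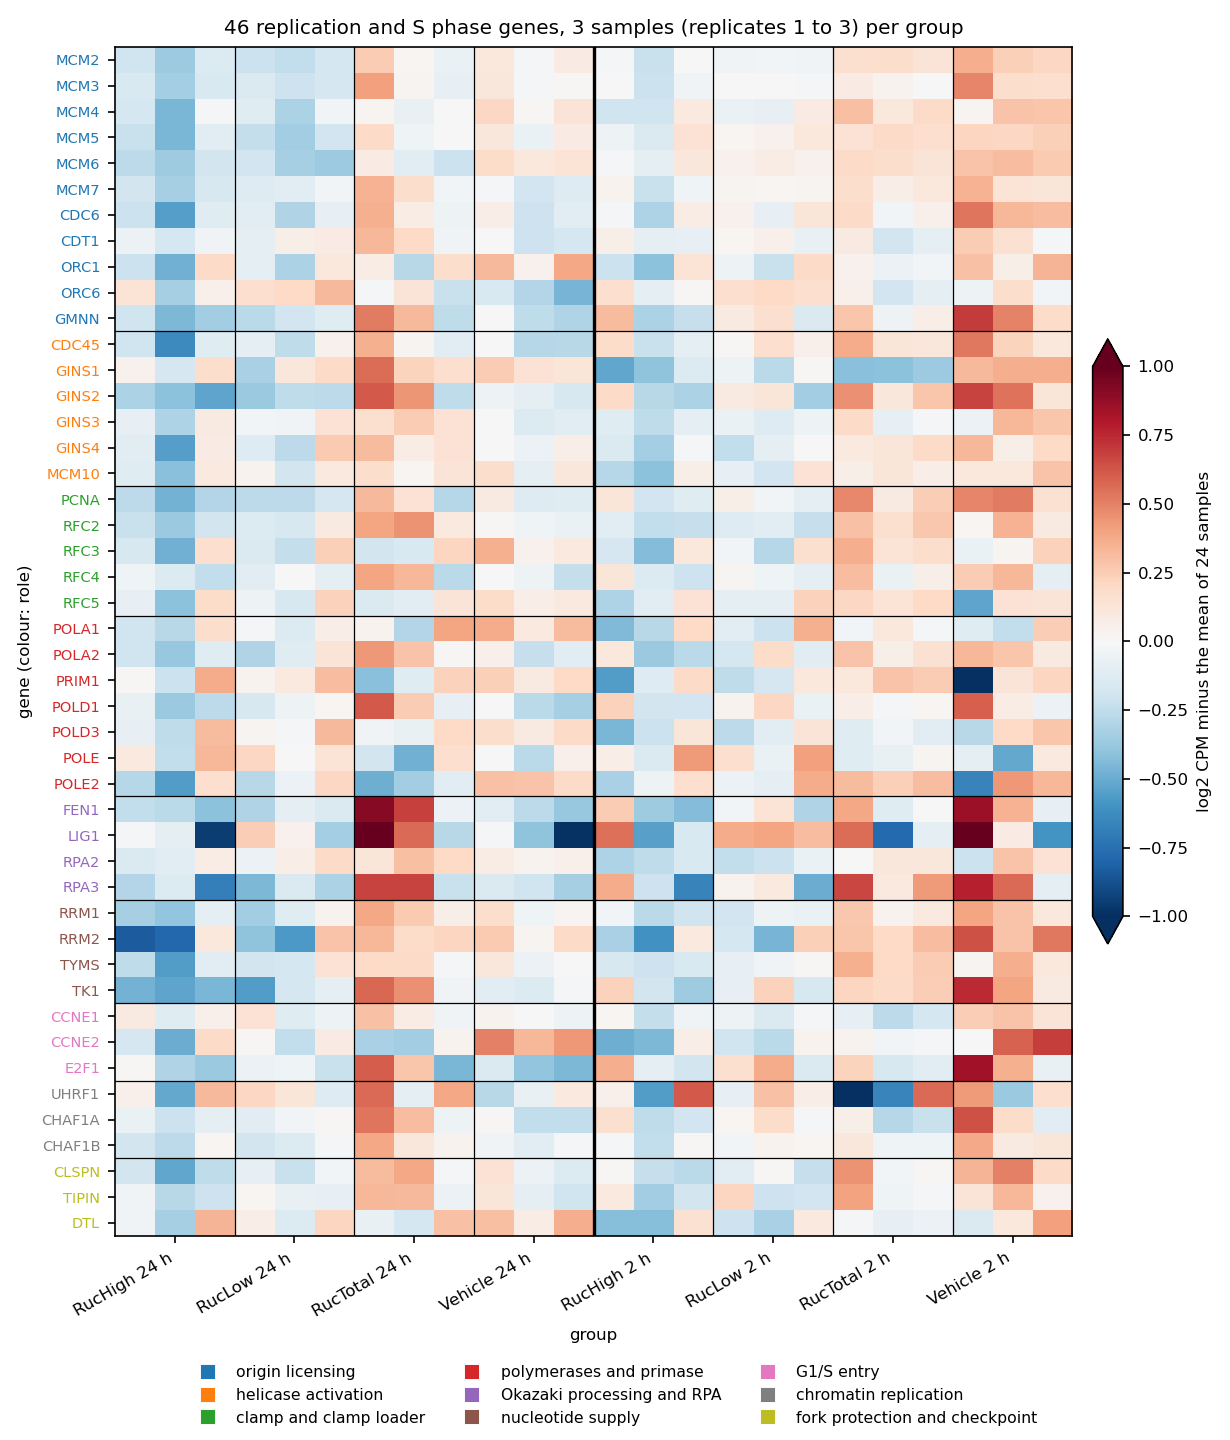
Heat map of the 46 members (down, ordered by role) in the 24 summed samples (across, 3 replicates in each of 8 groups), where colour is log2 CPM minus that gene's mean over all samples. LIG1 spans 20.7 to 88.2 CPM, and many members are high in RucTotal replicates 1 and 2 at 24 h but not in replicate 3.

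As deviations from the group means, the 1035 pairs of members had a median Pearson r of 0.37 over the 24 samples. 413 pairs were over 0.5 and 70 under -0.5. Properties that members share within a sample, such as its handling, were not separated from these values. The closest pairs were FEN1 with E2F1 and GINS2 with FEN1, both at 0.96. At 0.95 followed the clamp loader subunit RFC5 with the polymerase epsilon subunit POLE2, RFC5 with CCNE2, and CCNE2 with DTL. PCNA was closest to the rest, with a median r of 0.67 to the other members, and CDT1 and GMNN followed at 0.61. The primase subunit PRIM1, at -0.14, the RPA subunit RPA2, at -0.05, and POLE2, at -0.01, had the lowest medians. The same deviations tracked mean transcript length in opposite directions: r was under -0.5 in 18 members, among them GMNN (-0.87), PCNA (-0.79) and CDT1 (-0.77), and over 0.5 in 11, among them PRIM1 (0.67) and POLE2 (0.51). In the closest pairs, r with length was -0.92 for FEN1, -0.87 for E2F1 and -0.95 for GINS2. It was 0.57 for RFC5, 0.68 for CCNE2 and 0.76 for DTL. The part of mean transcript length in the correlations between members was not tested.

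Whether a day of drug changed these genes was asked by RucTotal against Vehicle at 24 h. No member passed edgeR's quasi-likelihood test with Benjamini-Hochberg adjustment (0 higher and 0 lower of 46), where 3.12% of all 19834 genes tested were called. At an unadjusted p under 0.05 there were 19 of 46 members and 4783 of all genes, and DESeq2 called 3 members higher and 2 lower. Calls over all genes by DESeq2 are not given, so its counts of members carry no background, here and below. The median log2 fold change of the members was 0.18, against 0.03 over all genes, with 34 members above 0. It was 0.22, 0.26 and 0.05 in replicates 1, 2 and 3. With the replicate number as a block, edgeR called 9 members higher, against a background of 12.9%, and 4 lower, against 10.5%. With the block and mean transcript length together, 0 members were called, of 1108 among all genes, and their median was 0.04. Without the libraries under 2800 bases, 1 member was called with no block, of 591 among 18563 genes. In bulk RNA, a different share of cells in S phase and a different amount of RNA of these genes per cell cannot be told apart.

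The enzymes that complete Okazaki fragments had the largest positive values. FEN1, the flap endonuclease, had 427, 365 and 218 CPM in RucTotal, against 211, 190 and 175 CPM in Vehicle. The groups did not overlap, but replicate 3 of RucTotal lay near Vehicle. Mean transcript lengths were also alike in replicate 3, and their part in the difference was not tested beyond the fits given. The log2 fold change was 0.81 ± 0.24 (SE, n = 3 each; edgeR adjusted p = 0.065), 0.0064 with the block, and 0.083 with block and length, at a log2 fold change of 0.29. LIG1, which seals the nick left by FEN1, had 83.8, 60.9 and 33.9 CPM in RucTotal, against 40.5, 31.1 and 20.7 CPM in Vehicle. It was higher with drug within every replicate number, though the groups overlapped (0.95 ± 0.42; edgeR adjusted p = 0.18, with block 0.024). RPA3, the smallest subunit of the single-strand DNA binding complex RPA, had 33.6, 33.5 and 18.1 CPM in RucTotal, against 19, 18.3 and 16.7 CPM in Vehicle. Only replicates 1 and 2 stood clear of Vehicle (0.66 ± 0.27; edgeR adjusted p = 0.15, with block 0.035 and with block and length 0.76). Its partner RPA2, of the same complex, stood at 0.16 ± 0.11 (edgeR adjusted p = 0.39).

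**Figure D2:**
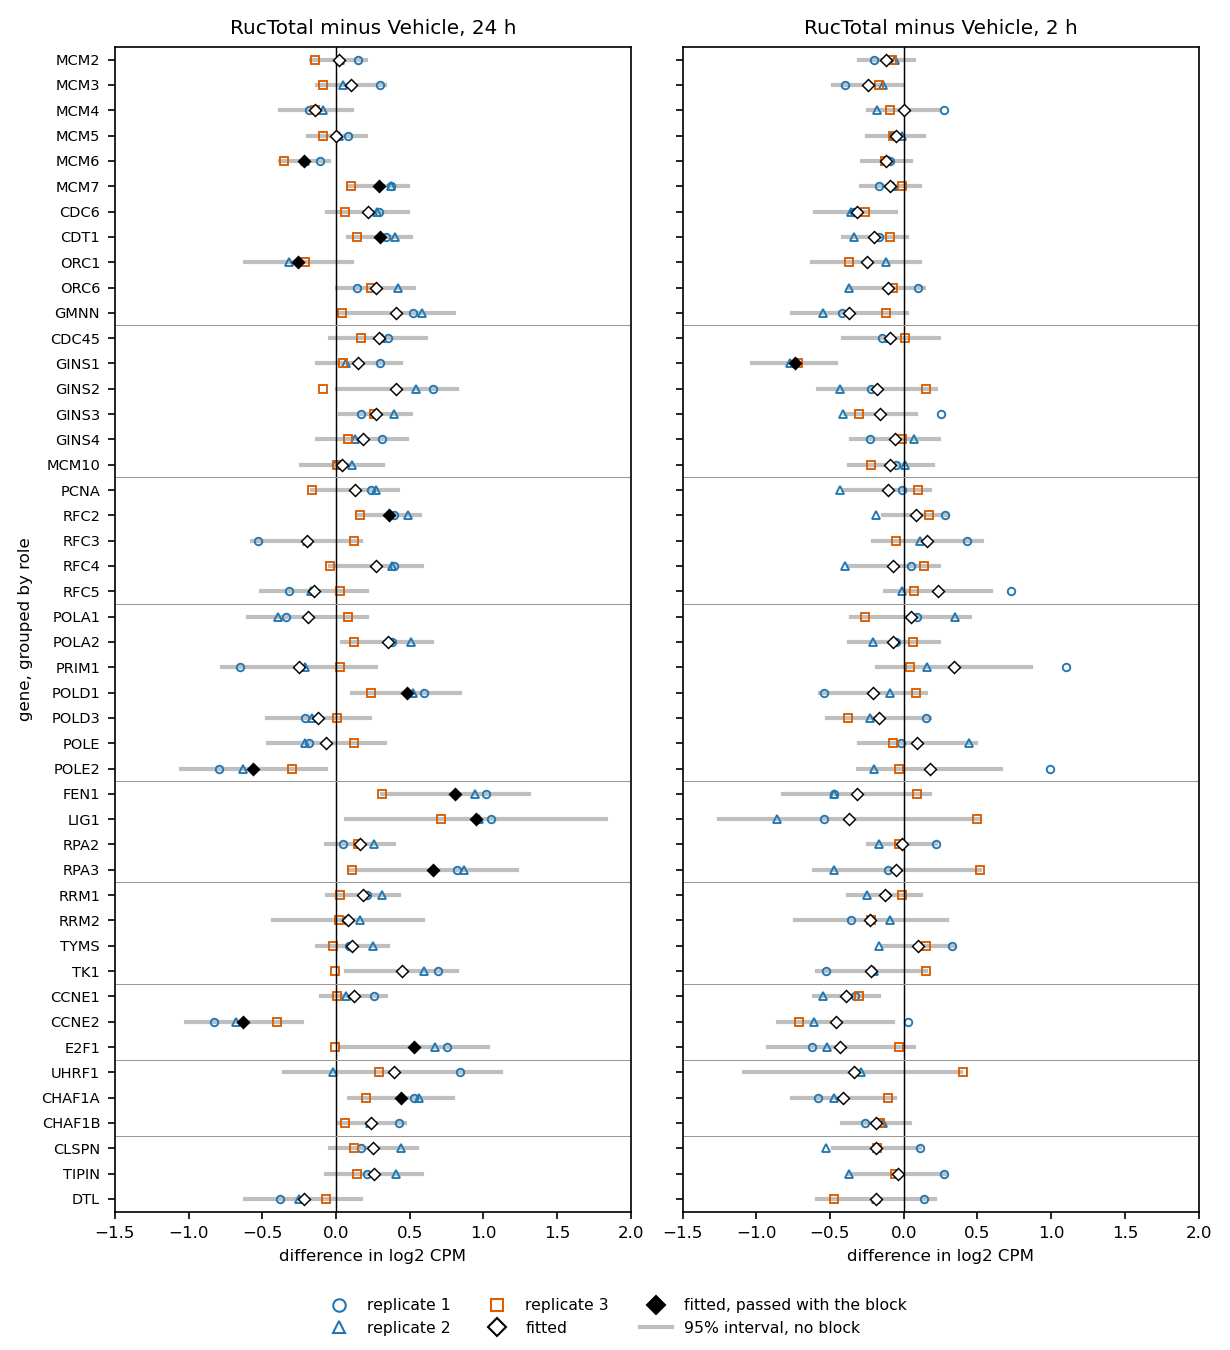
RucTotal minus Vehicle for each of the 46 members (down, by role) at 24 h and at 2 h, as log2 fold change (across) with 95% intervals from edgeR and 1 small point per replicate number. At 24 h 34 members are above 0, led by LIG1 at 0.95 and FEN1 at 0.81, and CCNE2 is lowest at -0.63, whereas at 2 h 38 members are below 0.

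The genes that drive entry into S phase had values of both signs. Cyclin E2 (CCNE2), a partner of CDK2, had 19.7, 19.4 and 25.3 CPM in RucTotal at 24 h, against 35.1, 31.1 and 33.4 CPM in Vehicle. All RucTotal samples lay below all Vehicle samples, replicate 3 included. The log2 fold change was -0.63 ± 0.19 (SE, n = 3 each; edgeR adjusted p = 0.07), with block 0.0055, with block and length 0.099 and without short libraries 0.047. CCNE1, which encodes the other cyclin E, had a log2 fold change of 0.12 ± 0.10 (edgeR adjusted p = 0.49). The transcription factor E2F1, whose own promoter has 2 E2F matches, had 182, 145 and 87.0 CPM in RucTotal, against 108, 90.9 and 87.5 CPM in Vehicle. Replicates 1 and 2 of RucTotal were above all Vehicle samples and replicate 3 was below them (0.53 ± 0.24; edgeR adjusted p = 0.18, with block 0.028 and with block and length 0.64).

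Origin licensing genes also had values of both signs at 24 h. MCM6, a helicase subunit, had 105, 92.1 and 85.3 CPM in RucTotal, against 113, 106 and 109 CPM in Vehicle. Its groups did not overlap, and the lowest RucTotal value was in replicate 3 (-0.22 ± 0.08; edgeR adjusted p = 0.12, with block 0.037 and with block and length 0.13). MCM7, of the same ring, had 495, 440 and 381 CPM in RucTotal, against 383, 341 and 355 CPM in Vehicle. All replicate numbers gave a higher value with drug, with overlap between the groups (0.29 ± 0.10; edgeR adjusted p = 0.097, with block 0.017). The other MCM2 to MCM7 subunits lay between -0.14 for MCM4 and 0.10 for MCM3. The loading factor CDT1 had 76.7, 69.8 and 59.2 CPM in RucTotal, against 60.7, 52.8 and 53.8 CPM in Vehicle, with 1 RucTotal sample inside the Vehicle range (0.30 ± 0.10; edgeR adjusted p = 0.10, with block 0.023). An offset for effective transcript length turned CDT1 to -0.04. Its inhibitor GMNN had 53, 46.4 and 31 CPM in RucTotal, against 37.0, 31.1 and 30.1 CPM in Vehicle, a log2 fold change of 0.41 ± 0.19 (edgeR adjusted p = 0.18). ORC1, the largest subunit of the origin recognition complex, had 49.6, 38.9 and 53.3 CPM in RucTotal, against 59.1, 48.5 and 61.7 CPM in Vehicle. It was lower with drug in each replicate number while the groups overlapped (-0.26 ± 0.17; edgeR adjusted p = 0.37, with block 0.042).

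Among polymerases, POLD1, the catalytic subunit of polymerase delta, had 211, 165 and 131 CPM in RucTotal, against 139, 115 and 110 CPM in Vehicle. 1 RucTotal sample lay inside the Vehicle range (0.48 ± 0.17; edgeR adjusted p = 0.11, with block 0.021). POLE2, the second subunit of polymerase epsilon, had 5.66, 6.27 and 7.41 CPM in RucTotal, against 9.76, 9.67 and 9.10 CPM in Vehicle. Its groups were apart in every replicate (-0.56 ± 0.23; edgeR adjusted p = 0.16, with block 0.034 and with block and length 0.23). The catalytic subunit POLE was at -0.07 ± 0.19. RFC2, a subunit of the clamp loader, had 59, 61 and 48 CPM in RucTotal, against 45, 43.4 and 42.9 CPM in Vehicle. All 3 RucTotal samples were above all 3 Vehicle samples (0.36 ± 0.10; edgeR adjusted p = 0.064, with block 0.021 and with block and length 0.38). PCNA, the clamp that RFC loads, was at 0.13 ± 0.14, and RFC3 and RFC5 were at -0.20 ± 0.18 and -0.15 ± 0.17.

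In the other roles, CHAF1A, the large subunit of the chromatin assembly factor that deposits histones behind the fork, had 154, 132 and 103 CPM in RucTotal, against 107, 89.4 and 89.8 CPM in Vehicle. The groups overlapped through replicate 3 (0.44 ± 0.17; edgeR adjusted p = 0.13, with block 0.025). TK1, which salvages thymidine, had 988, 912 and 646 CPM in RucTotal, against 612, 604 and 653 CPM in Vehicle, so that only replicates 1 and 2 were higher (0.45 ± 0.18; edgeR adjusted p = 0.14). Its neighbours in nucleotide supply, the ribonucleotide reductase subunits RRM1 and RRM2 and TYMS, lay between 0.08 and 0.18. GINS2 of the helicase had 52.1, 46.3 and 28.6 CPM in RucTotal, against 32.9, 31.8 and 30.5 CPM in Vehicle (0.41 ± 0.19; edgeR adjusted p = 0.19). With block and length its value turned to -0.02. TIPIN, of the fork protection complex, had 21.9, 21.7 and 16.7 CPM in RucTotal, against 18.9, 16.4 and 15.1 CPM in Vehicle, with overlap (0.26 ± 0.16; edgeR adjusted p = 0.32). The members not named here for 24 h lay between -0.25 for PRIM1 and 0.39 for UHRF1, a reader of DNA methylation at the fork.

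The number of calls changed with the replicate left out, over all genes as well as among members. Without replicate 3 edgeR called 5 members higher and 1 lower at 24 h, of 2604 calls over all genes. With all replicates it called 0 members, of 619 calls over all genes. Without replicate 1 it called 0 of 179, and without replicate 2 it called 0 of 3. Within replicate 3 alone, FEN1 stood at 0.31, LIG1 at 0.71, RPA3 at 0.11, E2F1 at -0.01 and TK1 at -0.01, whereas CCNE2 stood at -0.40, POLE2 at -0.30 and MCM6 at -0.35. Thus 24 members were above 0 in all 3 replicate numbers and 6 were below 0 in all 3. Of all 19834 genes, 5631 were above 0 and 5064 below 0 in all 3.

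**Figure D3:**
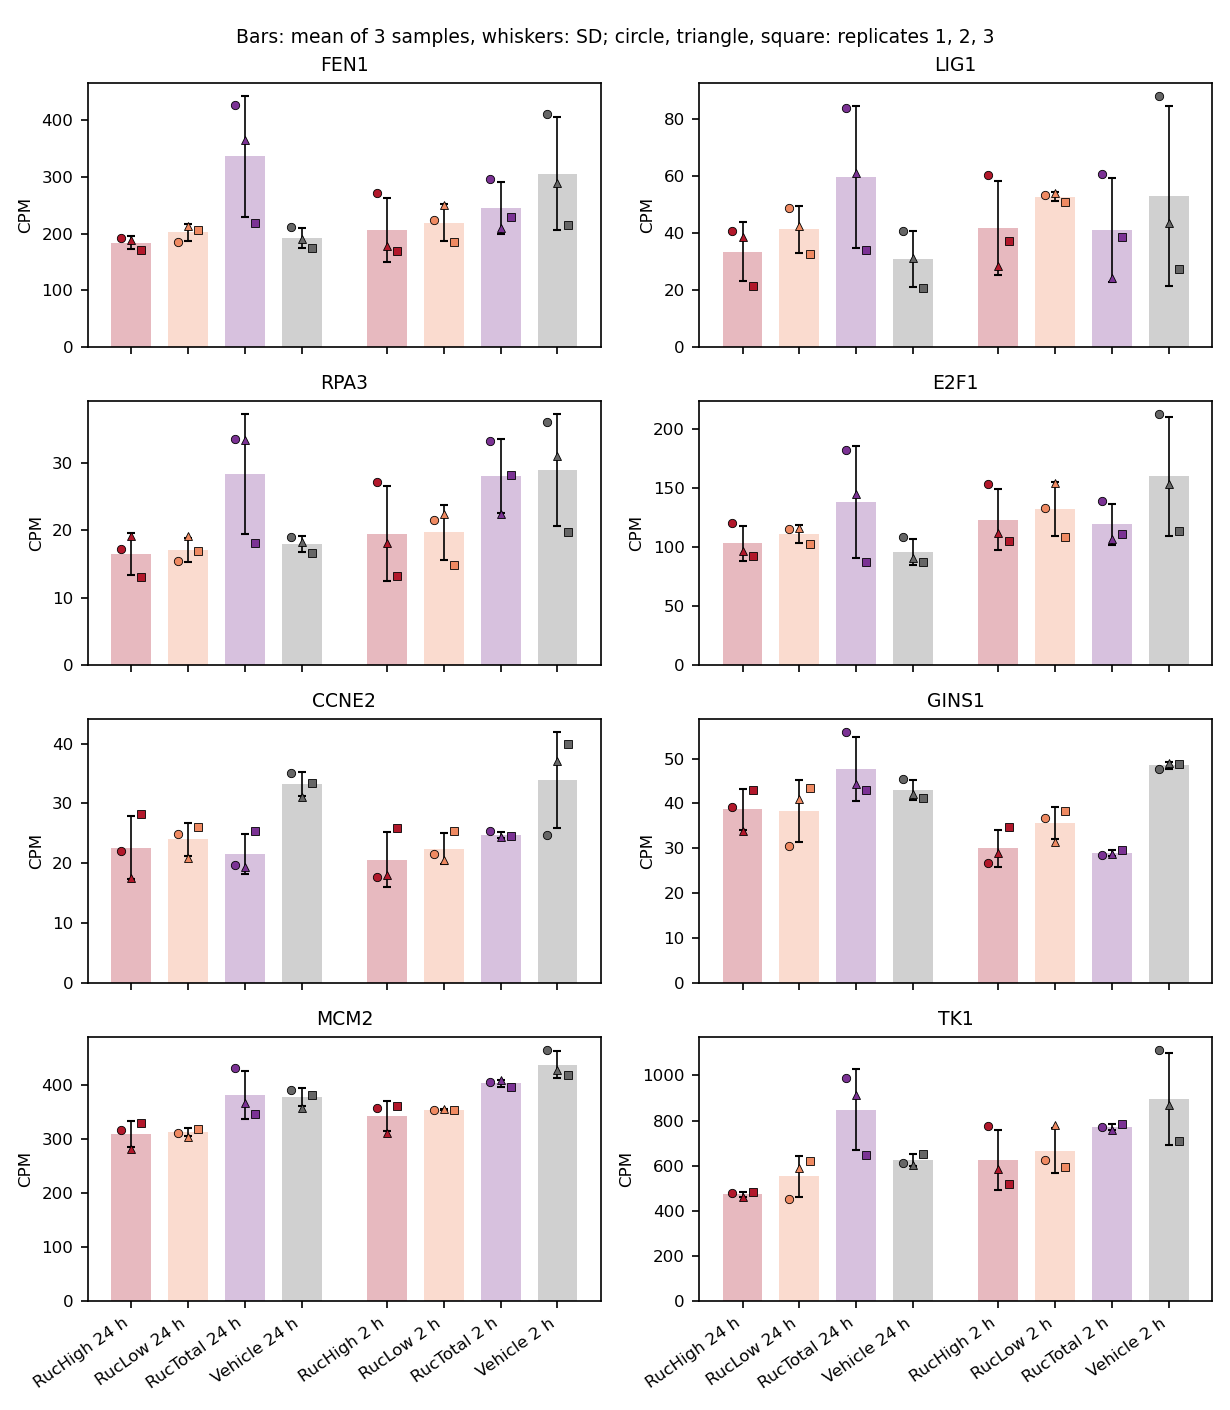
CPM of FEN1, LIG1, RPA3, E2F1, CCNE2, GINS1, MCM2 and TK1 in the 8 groups, with bars for the mean, error bars for the SD (n = 3) and 1 point per summed sample, on axes that start at 0. FEN1 in RucTotal at 24 h ranges from 218 to 427 CPM, and CCNE2 in Vehicle at 24 h from 31.1 to 35.1 CPM, above its values in all other 24 h groups.

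Genes outside the list give the setting. Of 48 other replication genes tested, 0 were called higher and 1 lower in RucTotal against Vehicle at 24 h, with a median log2 fold change of -0.02. The 1 gene was cyclin A2 (CCNA2), the cyclin of S phase and G2, which had 86.1, 89.7 and 113 CPM in RucTotal, against 181, 162 and 182 CPM in Vehicle. It fell in all replicates without overlap (-0.86 ± 0.20; edgeR adjusted p = 0.025). Of 30 G2 and mitosis genes, 10 were called lower, 29 were below 0 and the median was -0.67. KIF20A, a kinesin of cytokinesis, fell the most of them, to 23.5, 30.5 and 51.6 CPM in RucTotal, against 109, 128 and 168 CPM in Vehicle (-1.94 ± 0.37; edgeR adjusted p = 0.01). BUB1, a spindle checkpoint kinase, had 19.7, 29.6 and 48.1 CPM in RucTotal, against 82.8, 87.5 and 109 CPM in Vehicle (-1.52 ± 0.39; edgeR adjusted p = 0.042). With block and length 20 of the 30 were called lower, whereas 0 of the 46 members were called in that fit.

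At 2 h the same comparison addressed the early response. No member passed edgeR's test in RucTotal against Vehicle (0 of 46, with 0.0202% of all genes called), 6 had an unadjusted p under 0.05, as did 1308 of all genes, and DESeq2 called 2 lower. The members' median was -0.12, against 0.01 over all genes, with 38 members below 0 and 16 below 0 in all 3 replicate numbers. Of all 19834 genes, 2528 were below 0 in all 3. With the block 1 member was called lower, against a background of 0.0958%. With the block and without the libraries under 2800 bases 11 were called lower, of 935 called among 18563 genes, and with block and length 3 were, of 215 called among all 19834. CCNE1 had 16, 14.2 and 15 CPM in RucTotal, against 20.1, 20.7 and 18.6 CPM in Vehicle. Its groups did not overlap (-0.39 ± 0.10; edgeR adjusted p = 0.34, with block 0.059, with block and length 0.023, and with the block without short libraries 0.029). CDC6, which helps load the MCM ring, had 161, 138 and 146 CPM in RucTotal, against 204, 177 and 175 CPM in Vehicle, again without overlap (-0.32 ± 0.13; edgeR adjusted p = 0.69, with block 0.17, with block and length 0.075, and with the block without short libraries 0.042). These 2 members were chosen after their values were seen.

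The member called at 2 h with the block was GINS1, a subunit of the GINS complex. It had 28.5, 28.7 and 29.7 CPM in RucTotal, against 47.6, 49.1 and 48.9 CPM in Vehicle. The groups were far apart and tight within themselves (-0.74 ± 0.14; edgeR adjusted p = 0.11, with block 0.03). However, each RucTotal sample was the sum of 3 libraries of which 1 was short. GINS1 stood at 0.107 CPM in the short library of replicate 1 (2255 bases), at 10.1 in that of replicate 2 (2530 bases) and at 8.41 in that of replicate 3 (2313 bases). The other 6 RucTotal libraries at 2 h gave 34.4 to 42.6 CPM. Without the libraries under 2800 bases the log2 fold change was -0.33 (edgeR adjusted p = 0.49). With block and length 1 of the 6 helicase activation genes was called lower, of 100 lower calls over all genes. The 9 Vehicle libraries at 2 h ranged from 26.5 to 56.9 CPM. Those under 2800 bases gave 26.5 and 56.9 CPM in replicate 1 and 34.6 and 53.5 CPM in replicate 2. The longer Vehicle libraries gave 44.5 to 52.7 CPM, above the 6 longer RucTotal libraries. The part of library length in this difference was not tested beyond the fits given.

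**Figure D4:**
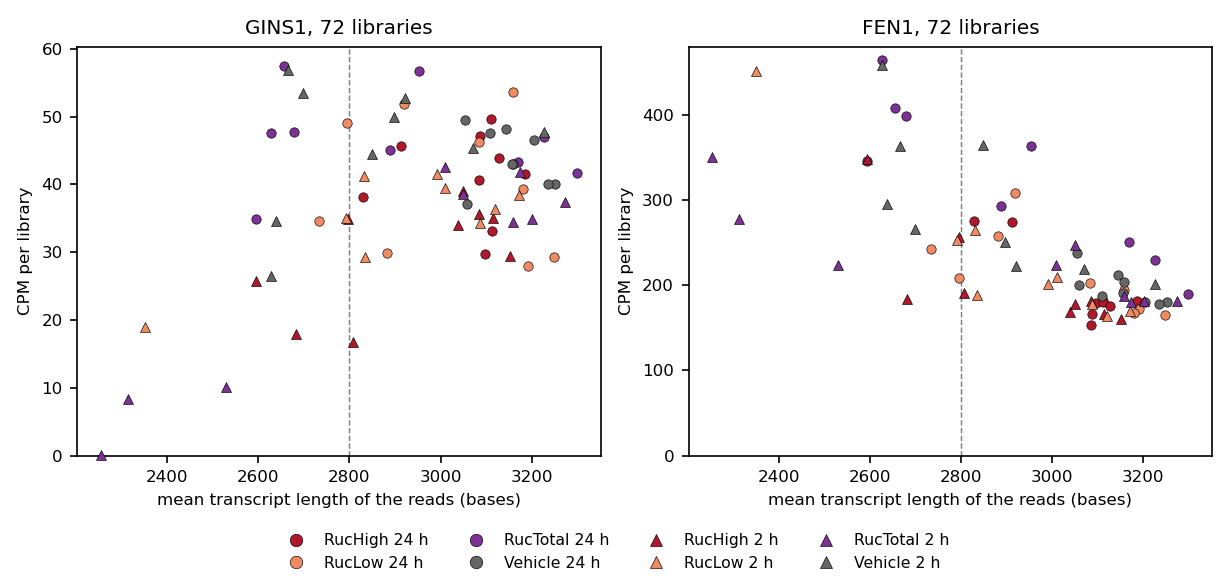
CPM of GINS1 and of FEN1 (up) in each of the 72 libraries against mean transcript length in bases (across), coloured by group, with circles for 24 h, triangles for 2 h and a dashed line at 2800 bases. The 3 short RucTotal libraries at 2 h hold 0.107, 10.1 and 8.41 CPM of GINS1, and FEN1 is at 451 CPM in a RucLow library of 2351 bases.

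The difference between the drug effects at 24 h and at 2 h was tested as an interaction. edgeR called 0 members, with 0.116% of all genes called, 19 members and 4097 of all genes had an unadjusted p under 0.05, and DESeq2 called 5 members, all higher. The members' median difference was 0.33 on the log2 scale, against 0.03 over all genes, and 35 members were above 0. With the block 12 members were called higher, against a background of 8.61%, and 1 lower, against 8.64%. With block and length 2 were called, of 732 among all genes, and without replicate 3 and without the block 9 were called, of 3000. CHAF1A differed by 0.85 ± 0.24 (edgeR adjusted p = 0.11, with block 0.011), FEN1 by 1.13 ± 0.34 (0.12, with block 0.013) and CCNE1 by 0.51 ± 0.15 (0.12, with block 0.011). POLE2 went the other way, at -0.74 ± 0.33 (edgeR adjusted p = 0.22, with block 0.049). GINS1 differed by 0.90 ± 0.19 (edgeR adjusted p = 0.061, with block 0.0071). Without the libraries under 2800 bases its difference was 0.47 (edgeR adjusted p = 0.30). With block and length 1 of the 6 helicase activation genes was called higher, of 300 higher calls over all genes.

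Time in culture was compared within each treatment. In Vehicle at 24 h against 2 h, edgeR called 0 members, with 0.0303% of all genes called, 21 members and 3394 of all genes had an unadjusted p under 0.05, and DESeq2 called 0. The median was -0.22, with 37 members below 0. With the block 8 members were called lower, against a background of 4.17%: MCM7, CDC6, GMNN, CDC45, GINS2, PCNA, FEN1 and E2F1, with log2 fold changes from -0.74 for E2F1 to -0.32 for MCM7. With block and length 0 of them were called, in a fit that called only 2 genes higher and 4 lower of all 19834. Vehicle samples 1 and 2 had mean transcript lengths of 3120 and 3107 bases at 24 h, against 2729 and 2747 at 2 h. In RucTotal at 24 h against 2 h 1 member was called higher, against a background of 1.16%, and 0 lower. This was GINS1, with 56, 44.3 and 42.9 CPM at 24 h, against 28.5, 28.7 and 29.7 CPM at 2 h (0.72 ± 0.14; edgeR adjusted p = 0.011). Without the short libraries the value was 0.30 and the call was lost (edgeR adjusted p = 0.40). With block and length 1 of the 6 helicase activation genes was called higher, of 2097 higher calls over all genes. With the block 3 members were called higher, against 5.66%, and 2 lower, against 6.21%. The first were GINS1, CCNE1 and CHAF1A, and the others MCM6 and POLE2.

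Whether cells that hold the most drug differ in S phase genes from those that hold the least was asked by RucHigh against RucLow. At 24 h no member passed edgeR's test (0 of 46, with 0.106% of all genes called), 1 member and 812 of all genes had an unadjusted p under 0.05, and DESeq2 called 0. With the block the count was also 0, against a background of 0.585%. Values were small and mostly of 1 sign: 42 of 46 members were below 0, with a median of -0.11 and a range from -0.30 to 0.03, against a median of -0.01 over all genes. The medians in replicates 1, 2 and 3 were -0.03, -0.23 and -0.11, and 17 members were below 0 in all 3, as were 3269 of all 19834 genes. The other replication genes (42 of 48 below 0, median -0.10) and the G2 and mitosis genes (29 of 30 below 0, median -0.27) were mostly below 0 as well. No gene of either list was called.

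Of single members, ORC6, a small subunit of the origin recognition complex, had 43.6, 31.4 and 40.9 CPM in RucHigh at 24 h, against 44.5, 45.5 and 49.6 CPM in RucLow. Every RucHigh sample lay below every RucLow sample (-0.27 ± 0.12, 95% interval -0.53 to -0.01; edgeR adjusted p = 1). RRM2, the inducible subunit of ribonucleotide reductase, had 131, 136 and 252 CPM in RucHigh, against 177, 157 and 286 CPM in RucLow. The replicates differed more from each other than the gates did, while each pair was lower in RucHigh (-0.26 ± 0.25, interval -0.77 to 0.26). LIG1 had 40.6, 38.4 and 21.3 CPM in RucHigh, against 48.8, 42.2 and 32.5 CPM in RucLow (-0.30 ± 0.42, interval -1.18 to 0.58). RFC2 had 38.3, 34.6 and 39.5 CPM in RucHigh, against 40.7, 40.1 and 47.7 CPM in RucLow, and its groups did not overlap (-0.19 ± 0.10, interval -0.41 to 0.02). CDC45, the helicase activator, had 53.7, 39.8 and 56.8 CPM in RucHigh, against 57.8, 51.9 and 63.5 CPM in RucLow (-0.21 ± 0.15, interval -0.53 to 0.12). Claspin (CLSPN), which carries the signal of stalled forks to CHK1, had 46.6, 37.0 and 44.3 CPM in RucHigh, against 50.2, 45.3 and 51.9 CPM in RucLow. It too was lower in each pair while the groups overlapped (-0.20 ± 0.14, interval -0.50 to 0.09).

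POLD1 had 131, 107 and 115 CPM in RucHigh at 24 h, against 124, 134 and 141 CPM in RucLow (-0.17 ± 0.17). E2F1 had 120, 96.7 and 92.3 CPM in RucHigh, against 115, 116 and 102 CPM in RucLow (-0.10 ± 0.24). In both, replicate 1 was higher in RucHigh and the other pairs were lower. UHRF1, which recognises hemimethylated DNA behind the fork, had 93.0, 63.2 and 112 CPM in RucHigh, against 104, 97.7 and 82.1 CPM in RucLow. Its pairs went both ways (-0.08 ± 0.35), and the sign turned to 0.13 without replicate 2. Intervals were narrower for MCM2, at -0.01 (-0.20 to 0.17), and MCM6, at 0.03 (-0.14 to 0.20).

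At 2 h the gates gave the same outcome. edgeR called 0 members, with 0.00504% of all genes called, 0 members and 639 of all genes had an unadjusted p under 0.05, DESeq2 called 0, and with the block 0 were called, against a background of 0.368%. The median was -0.09, against 0.00 over all genes, and 45 of 46 members were below 0, the exception being UHRF1 at 0.01 ± 0.35. In replicates 1, 2 and 3 the medians were 0.01, -0.19 and -0.05. TYMS had 126, 122 and 126 CPM in RucHigh, against 133, 137 and 142 CPM in RucLow, and its groups did not overlap (-0.14 ± 0.12). GINS1 had 26.6, 28.9 and 34.7 CPM in RucHigh, against 36.8, 31.5 and 38.4 CPM in RucLow (-0.24 ± 0.14).

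**Figure D5:**
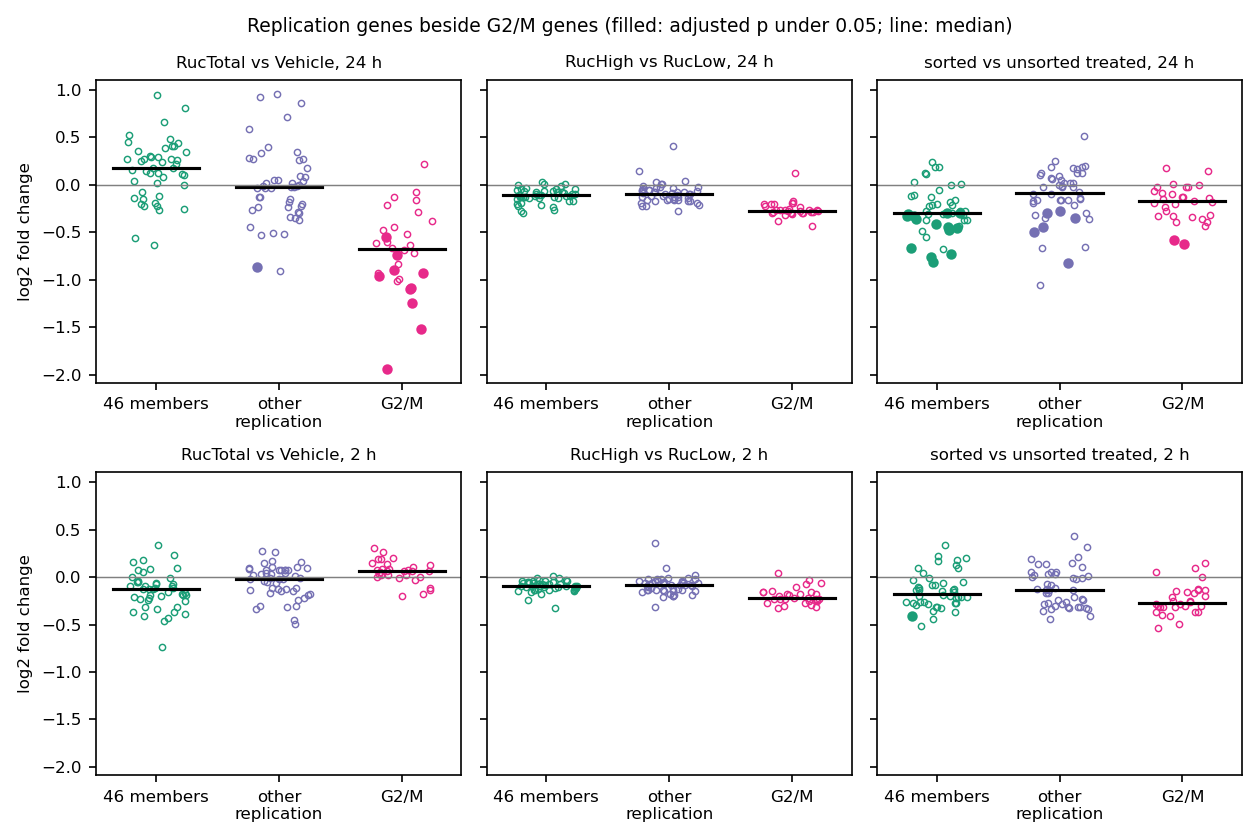
Log2 fold change (edgeR) of the 46 members, 48 other replication genes and 30 G2 and mitosis genes in 6 comparisons, with 1 point per gene and a bar at the median of each list. In RucTotal against Vehicle at 24 h the medians are 0.18, -0.02 and -0.67, and in RucHigh against RucLow at 24 h they are -0.11, -0.10 and -0.27.

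Sorted cells (the mean of RucHigh and RucLow) were also set against RucTotal of the same time, which asks what the sorting route and the gates share. RucTotal at 24 h is also the drug arm of the comparison with Vehicle, so that both results rest on the same 3 samples. At 24 h 14 members were called lower, against a background of 4.95%, and 0 higher, against 4.08%. The median was -0.30, against 0.01 over all genes, and 38 members were below 0. With the block 26 members were called lower, against 13.7%, and 1 higher, against 10.3%. The medians in replicates 1, 2 and 3 were -0.44, -0.38 and -0.02. Sorted cells held more mitochondrial RNA than unsorted treated cells, at 1.77 to 4.68% of reads, against 0.371 to 0.539%, and their samples had mean transcript lengths of 2984 to 3142 bases. With block and length 18 members were called lower and 0 higher, with a median of -0.22. Among all genes that fit called 1939 lower and 1550 higher. The part of mitochondrial RNA or of length in these results was not tested beyond the fits given.

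The 14 members were MCM2, MCM3, MCM5, MCM7, CDC6, GINS2, RFC2, POLA2, FEN1, RPA3, RRM1, TK1, CHAF1B and CLSPN, and all of them were lower in all 3 replicate numbers. FEN1 fell the most. It had 192, 188 and 171 CPM in RucHigh and 185, 214 and 206 CPM in RucLow, against 427, 365 and 218 CPM in RucTotal (-0.81 ± 0.20; edgeR adjusted p = 0.019). TK1 had 478, 460 and 482 CPM in RucHigh and 450, 588 and 619 CPM in RucLow, against 988, 912 and 646 CPM in RucTotal. All 6 sorted samples were under all 3 unsorted ones (-0.73 ± 0.15; edgeR adjusted p = 0.0079). RFC2 had the lowest adjusted p, with 38.3, 34.6 and 39.5 CPM in RucHigh and 40.7, 40.1 and 47.7 CPM in RucLow, against 59, 61 and 48 CPM in RucTotal (-0.48 ± 0.09; edgeR adjusted p = 0.0039). RRM1 had 103, 99.0 and 122 CPM in RucHigh and 102, 119 and 133 CPM in RucLow, against 170, 156 and 135 CPM in RucTotal (-0.44 ± 0.10; edgeR adjusted p = 0.014). Its groups did not overlap. MCM2 had 316, 282 and 329 CPM in RucHigh and 311, 304 and 319 CPM in RucLow, against 432, 367 and 346 CPM in RucTotal, also without overlap (-0.30 ± 0.08; edgeR adjusted p = 0.02). The calls rest on replicates 1 and 2: without replicate 1 0 members were called, of 380 among all genes, without replicate 2 0 of 5, and without replicate 3 21 of 2825. In a fit of only the groups compared 0 of 208 calls were members, and without the short libraries 8 of 1471 were.

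At 2 h 1 member was called lower in sorted against unsorted treated cells, against a background of 1.10%. RFC2 had 41.5, 37.8 and 38.1 CPM in RucHigh and 41, 41.7 and 38.3 CPM in RucLow, against 55, 50 and 53.9 CPM in RucTotal. The sorted samples were all lower, with a gap between the groups (-0.41 ± 0.09; edgeR adjusted p = 0.023). With the block 9 members were called lower, against 8.06%: MCM2, MCM4, PCNA, RFC2, RFC3, RPA2, RPA3, RRM2 and TYMS. Without the libraries under 2800 bases RFC2 stood at -0.21 (edgeR adjusted p = 0.14), and leaving out any 1 replicate ended its call at an adjusted p of 0.12 to 0.29.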

How the data were processed

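RNA-seq libraries (72, from 24 replicates in 8 groups) were deposited by the authors as tables of estimated counts and TPM per transcript. The authors made both units with Salmon, whose version is not given in the sources used here, and the submitters' processing notes name cutadapt 4.7, DESeq2 1.44.0 and GRCh38. The paper does not describe these RNA libraries. Of 257369 transcripts, 194437 were matched to genes by GENCODE release 29. The rest took 9.65% to 11.7% of a library's reads and were left out, so that members' reads on newer transcripts are not counted.

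Estimated counts were summed per gene and over the 3 libraries of a replicate, rounded, filtered with filterByExpr and scaled by TMM. 19834 genes were fitted over all 24 samples by edgeR 4.0.16 (quasi-likelihood; R 4.3.3, limma 3.58.1), with Benjamini-Hochberg adjustment over all of them and a threshold of 0.05. CPM, log2 CPM (prior count 0.5) and summed TPM are given per sample. The test was checked on simulated counts. Alternatives were DESeq2 1.42.0, its size factors in edgeR, no low-count filter, the replicate block alone and with mean transcript length, fits of only the groups compared, leaving out libraries under 2800 bases or of lowest totals, an effective-length offset, and each replicate left out.

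The labels do not say whether replicates came from separate cultures, so p-values may measure technical spread. The paper's reporting summary places replicates of sorting experiments in general on different days, from which the replicate numbers were taken to pair samples. Deviations from group means correlated with a median of 0.24 over 84 same-numbered pairs (73 over 0.1, lowest -0.0384) and of -0.11 over 168 others.

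Members and lists were chosen with earlier results of these data known. Values per sample are given for members called in RucTotal against Vehicle or RucHigh against RucLow, with or without the block, for the member of each role with the largest change at 24 h, and for members called in the other comparisons where shown. Of the other lists, up to 2 called genes per direction are named. Members shown beyond this were chosen after their values were seen. E2F2 and ASF1B are not analysed here. Promoter windows are from RefSeq.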

Additional observations from a re-analysis of the deposited data

Results flagged for a closer look

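Of the members shown library by library (FEN1, LIG1, GINS1, CCNE2 and UHRF1), 4 of 40 groups of 9 libraries held 1 library whose gap to the nearest other library exceeded 0.493 of the group's range. About 1 in 20 groups would pass this limit by chance if the 9 values were independent and normally distributed. Libraries of 1 replicate are not independent of each other, so that rate need not apply here. FEN1 stood at 451 CPM in 1 RucLow library at 2 h, and CCNE2 stood at 3.06 CPM in RucLow at 2 h in the same library, whose mean transcript length was 2351 bases. LIG1 stood at 78.6 CPM in 1 RucHigh library at 24 h, and UHRF1 at 35.9 CPM in 1 RucTotal library at 24 h. Over all 46 members 45 of 368 groups passed this limit, 20 of them in RucLow at 2 h and 12 in Vehicle at 2 h, and in 40 the library concerned was under 2800 bases of mean transcript length. The cause was not tested.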

How the results depend on the processing

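Over 117 counts of members called under 13 alternatives, 69 stayed within 1.5 times the reported count, and RucHigh against RucLow gave 0 at both times under all of them. For RucTotal against Vehicle at 24 h (0 reported) DESeq2 called 5, the replicate block 13, the block without short libraries 4, leaving out short libraries 1, leaving out the 2 libraries of lowest totals 3, and leaving out 1 replicate 0 to 6. At 2 h (0 reported) the values under the same alternatives were 2 by DESeq2, 1 with the block, 11 with the block and no short libraries and 1 without the 2 libraries, and the block with mean transcript length gave 3. For sorted against unsorted cells at 24 h (14 reported) no low-count filter gave 7, the block 27 and only the groups compared 0. No short libraries gave 8, an effective-length offset 3, block and length 18, and leaving out 1 replicate 0 to 21. At 2 h (1 reported, RFC2) DESeq2 and a fit of only the groups compared gave 2, the block 9, block and length 13, the block without short libraries 5, and 0 came from no low-count filter, no short libraries, the offset and every replicate left out. Vehicle at 24 h against 2 h (0 reported) gave 8 with the block and 13 with the block and no short libraries. RucTotal at 24 h against 2 h (1 reported) gave 3 by DESeq2, 5 with the block, 8 with block and length, 7 with the block and no short libraries, and 0 in a fit of only the groups compared, without short libraries, with the offset and without any 1 replicate. The difference between the drug effects (0 reported) gave 5 by DESeq2, 13 with the block, 2 with block and length, 19 with the block and no short libraries, 2 without short libraries, 1 without the 2 libraries, and 0 to 9 with 1 replicate left out. Calls over all genes moved with the settings too. RucTotal against Vehicle at 24 h had 2551 higher and 2077 lower with the block, against 401 and 218 without it. The difference between the drug effects had 1707 and 1713 with the block, against 17 and 6 without it, and 300 and 432 with block and length. Calls over all genes by DESeq2 are not given here, so its counts of members carry no background. Over 559 values of named members 437 kept direction and side of the threshold, 83 lost a call, 36 gained one and 3 changed sign (CDT1 with the offset, -0.04, and GINS2 with block and length, -0.02, both in RucTotal against Vehicle at 24 h, and UHRF1 in RucHigh against RucLow at 24 h with 1 replicate left out, -0.36 to 0.13). The cause of these changes was not tested. With 3 replicates and log2 standard errors of 0.08 to 0.42 in RucTotal against Vehicle at 24 h, the noisiest members, LIG1 and UHRF1, allow only large changes to be detected.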

Other observations

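Libraries of 1 replicate differed most for UHRF1 and LIG1. The highest of the 3 libraries was, in the median sample, 1.97 times the lowest for UHRF1, 1.83 times for LIG1 and 1.09 times for MCM2 and RRM1. For GINS1 the ratio was 1.39 in the median sample and 397 in the most uneven one, RucTotal replicate 1 at 2 h.

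CCNE2 lay at 17.6 to 28.2 CPM in the 9 treated samples at 24 h, RucHigh, RucLow and RucTotal together, against 31.1 to 35.1 CPM in Vehicle. At 2 h it lay at 17.7 to 25.9 CPM in the 9 treated samples, against 24.7, 37.1 and 40 CPM in Vehicle, where replicate 1 fell inside the treated range. The sorted groups differ from Vehicle in both drug and handling, which cannot be told apart, and no test was run on them together.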
